A study of Homo sapiens with 6 samples.

Results

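NRAS, HRAS, BRAF, ARAF, MAP2K1, MAP2K2 and MAPK3 encode GTPases and kinases of the RAS, RAF, MEK and ERK cascade. Their transcripts were followed in A375 cells, a human melanoma line whose BRAF gene carries an activating mutation. The 7 genes were taken by symbol from a table of raw counts for 16934 genes, and all 7 were among the 13930 genes that passed the filter on low counts. RNA sequencing covered 6 libraries in 2 groups. A group of 3 came from A375 cells edited with CRISPR-Cas9 and a guide RNA (sgRNA) against POLK, the gene of the error-prone DNA polymerase kappa, and a group of 3 from A375 cells edited with a non-targeting sgRNA. Both groups thus share the cell line and the editing system, and no drug is named for either. The labels do not say whether a group was 1 clone or a pool of edited cells. The study concerns the link between polymerase kappa and oncogenic signalling, and the comparison here asks whether the transcripts of the signalling cascade itself differed in cells that received the POLK sgRNA.

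RAS proteins are small GTPases at the plasma membrane that, when loaded with GTP, recruit RAF kinases. RAF phosphorylates MEK, MEK phosphorylates ERK, and ERK then phosphorylates cytosolic and nuclear proteins, transcription factors among them. Each tier is encoded by several paralogous genes whose products overlap in function, and in many melanomas mutant BRAF signals without the need for active RAS.

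Total counts were 46559658 to 56891905 in POLK sgRNA libraries and 42852645 to 55003324 in control sgRNA libraries. The POLK transcript itself averaged 18.2 ± 1.003 counts per 1000000 (CPM; SD, n = 3) with the POLK sgRNA and 23.3 ± 0.84 CPM (SD, n = 3) with the control sgRNA (log2 fold change −0.36, adjusted p = 7.9e-08, edgeR), and an edit need not lower the mRNA it disrupts. Nothing in the labels ties the 3 replicates of a group to cultures of their own, so the p-values rest on a spread that could be technical only. A difference between edited populations from other sources and one from the loss of POLK cannot be told apart. Melanocyte lineage markers, with SOX10 the most abundant, summed to 1420 to 1480 CPM in POLK sgRNA libraries and 1240 to 1270 CPM in control sgRNA libraries, while the pigment gene TYR had no count in 5 of 6 libraries. PMEL averaged 0.69 and 0.40, MLANA 0.32 and 0.49 and DCT 0.21 and 0.52 CPM in POLK sgRNA and control sgRNA libraries. Control library 1 held the only TYR signal (0.44 CPM). DCT stood at 1.49 CPM in that library, against 0.04 and 0.02 CPM in control libraries 2 and 3. Of 8 tested melanocyte lineage markers 6 were higher and 0 lower (edgeR, adjusted p under 0.05). Over all genes tested 32.8% were higher and 31.6% lower, and every marker list here is short. Leukocyte markers summed to 19.1 to 21.0 CPM in POLK sgRNA libraries and 3.62 to 4.08 CPM in control sgRNA libraries, nearly all from LYZ, and fibroblast markers to 12.5 to 13.7 CPM in POLK sgRNA and 8.79 to 11.2 CPM in control sgRNA libraries. Endothelial markers summed to 5.84 to 6.27 CPM in POLK sgRNA and 3.04 to 3.99 CPM in control sgRNA libraries, and keratinocyte markers, mainly KRT10, to 100 to 105 and 82.5 to 86.7 CPM in those groups. Within the lists, of the tested leukocyte markers 1 was higher and 1 lower, of the fibroblast markers 2 and 2, of the endothelial markers 4 and 1, and of the keratinocyte markers 2 and 0. LUM, a matrix proteoglycan, averaged 4.50 CPM in POLK sgRNA and 0.423 CPM in control sgRNA libraries, while PDGFRA averaged 2.66 CPM in POLK sgRNA and 4.57 CPM in control sgRNA libraries. The part of these markers in the results below was not tested.

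Among the 7 cascade genes, MAPK3 and ARAF were higher and HRAS and BRAF were lower with the POLK sgRNA, while NRAS, MAP2K1 and MAP2K2 did not pass the test. All of these differences were small, and the largest, in MAPK3, was 1.16-fold. That made 4 of 7 genes called, or 57.1%, in a comparison that called 64.3% of all 13930 genes tested (adjusted p under 0.05 by the quasi-likelihood test of edgeR, with the Benjamini-Hochberg method). Of all genes tested 32.8% were called higher and 31.6% lower, so the count of 2 higher and 2 lower cascade genes lay near the background. The count of lower genes was 1 without POLK sgRNA library 1 or 2 or control library 1, since BRAF then lost its call. The median log2 fold change was 0.01 for the 7 genes and 0.01 for all genes tested, and the median absolute log2 fold change was 0.09 for the 7 genes and 0.18 for all genes tested. Both directions occurred within the RAF tier, where BRAF was lower and ARAF higher. In the CPM of 4 of the 7 genes the groups did not overlap, 2 with the POLK sgRNA libraries higher and 2 with them lower, against 67.7% of all genes tested, 34.6% higher and 33.1% lower.

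**Figure D1:**
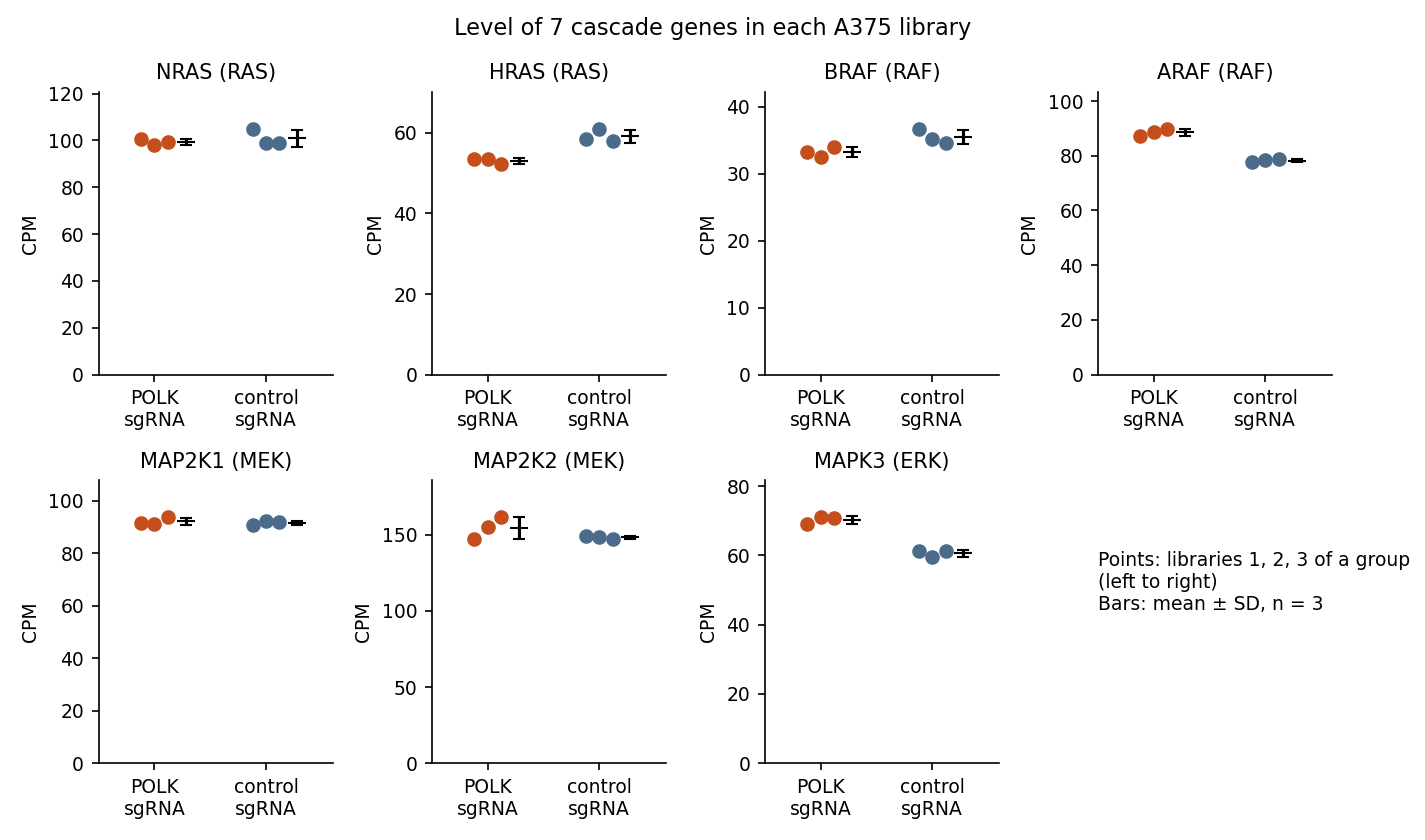
CPM (counts per 1000000 on TMM-scaled library sizes) of each cascade gene in each library, POLK sgRNA in orange and control sgRNA in blue, with the mean and SD (n = 3) beside the points and every axis starting at 0. The ARAF and MAPK3 points of the POLK sgRNA group lie above all control points, those of HRAS and BRAF lie below all control points, and the points of NRAS, MAP2K1 and MAP2K2 overlap.

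Promoter windows of the 4 genes that were called are shown to set side by side annotated start regions of genes that moved in opposite directions. Each runs from 250 bases before to 50 bases after the RefSeq transcript start (RefSeq, build GRCh38.p14), 5′ to 3′ on the gene's strand, and all 7 cascade genes had such a window. Capitals mark GGGCGG or its reverse complement CCGCCC, the core of the SP1 box that binds SP1-family factors.
HRAS, chr11:535527-535826, minus strand: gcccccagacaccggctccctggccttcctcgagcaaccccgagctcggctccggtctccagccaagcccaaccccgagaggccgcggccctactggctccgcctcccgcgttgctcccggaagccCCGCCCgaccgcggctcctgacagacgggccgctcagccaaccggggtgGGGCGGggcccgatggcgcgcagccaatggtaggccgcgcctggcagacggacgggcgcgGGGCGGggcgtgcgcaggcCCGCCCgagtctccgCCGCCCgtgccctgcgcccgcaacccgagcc
BRAF, chr7:140924219-140924518, minus strand: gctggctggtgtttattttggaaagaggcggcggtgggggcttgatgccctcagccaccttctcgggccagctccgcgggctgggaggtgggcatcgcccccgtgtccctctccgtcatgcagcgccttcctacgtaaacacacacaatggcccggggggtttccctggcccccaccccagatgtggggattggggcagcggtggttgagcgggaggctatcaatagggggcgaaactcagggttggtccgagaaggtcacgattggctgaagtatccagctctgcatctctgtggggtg
ARAF, chrX:47560955-47561254, plus strand: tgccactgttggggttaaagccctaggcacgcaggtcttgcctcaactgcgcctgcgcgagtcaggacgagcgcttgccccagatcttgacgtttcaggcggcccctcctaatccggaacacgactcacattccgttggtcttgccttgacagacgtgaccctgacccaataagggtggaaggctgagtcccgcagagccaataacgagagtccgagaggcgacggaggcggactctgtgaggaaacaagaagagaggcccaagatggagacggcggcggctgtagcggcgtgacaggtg
MAPK3, chr16:30123171-30123470, minus strand: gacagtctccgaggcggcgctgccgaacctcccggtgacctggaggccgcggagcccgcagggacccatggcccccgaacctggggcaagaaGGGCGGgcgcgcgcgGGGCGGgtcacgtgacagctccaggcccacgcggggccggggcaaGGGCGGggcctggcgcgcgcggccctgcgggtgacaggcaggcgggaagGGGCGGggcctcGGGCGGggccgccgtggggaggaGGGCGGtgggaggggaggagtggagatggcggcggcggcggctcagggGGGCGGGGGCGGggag
The window of HRAS, which was lower, held 5 matches, and that of MAPK3, which was higher, held 8. The windows of BRAF, which was lower, and of ARAF, which was higher, held none. In the GENCODE 29 positions, HRAS begins at 537287, BRAF at 140924928 and MAPK3 at 30123506 on the minus strand. Their windows thus lie inside the gene, downstream of the most upstream start annotated there. The matches and GC content of these windows may not describe the main promoter. On both strands 45% of 35116 promoter windows held at least 1 match. Another promoter element, CCAAT or its reverse complement ATTGG, occurred at 2 places in the window of BRAF and 2 in that of ARAF, at 1 in that of HRAS and at none in that of MAPK3, against 34.6% of all windows with at least 1. No match of one motif overlapped a match of the other. The GC content was 78.0% for HRAS, 63.0% for BRAF, 60.3% for ARAF and 80.7% for MAPK3, with a median of 58.7% over all windows. Such matches describe the letters only and show no binding.

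NRAS and HRAS encode RAS GTPases that differ mainly in their C-terminal tails, which direct lipid attachment and the membranes they reach. NRAS (ENSG00000213281, chromosome 1, 114704469 to 114716894, minus strand, GRCh38) had 100.4, 98.1 and 99.25 CPM in POLK sgRNA libraries 1, 2 and 3, against 104.9, 98.7 and 98.9 CPM in control sgRNA libraries 1, 2 and 3. The groups overlapped, and control library 1 was the highest. The log2 fold change of NRAS was −0.02 (95% interval −0.08 to 0.04, adjusted p = 0.51, edgeR). HRAS (ENSG00000174775, chromosome 11, 532242 to 537287, minus strand) had 53.4, 53.5 and 52.1 CPM in POLK sgRNA libraries, against 58.4, 61.0 and 58.0 CPM in control sgRNA libraries. Every POLK sgRNA library lay below every control library for this gene. HRAS reached 89.7% of its control level, a log2 fold change of −0.16 (SE 0.03, adjusted p = 5.8e-05, edgeR).

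BRAF and ARAF encode RAF kinases, of which BRAF has the higher basal kinase activity and is the one most often mutated in melanoma. BRAF (ENSG00000157764, chromosome 7, 140719327 to 140924928, minus strand) had 33.3, 32.5 and 33.9 CPM in POLK sgRNA libraries, against 36.7, 35.2 and 34.6 CPM in control sgRNA libraries. The groups did not overlap, but POLK sgRNA library 3 and control library 3 lay close together. BRAF reached 93.7% of its control level, with a log2 fold change of −0.09 (SE 0.04, adjusted p = 0.031, edgeR). This call was lost on leaving out POLK sgRNA library 1 or 2 (adjusted p = 0.058 and 0.12) or control library 1 (0.11), with library size alone as the scale (0.077) and with DESeq2 (0.058), over a range of 0.016 to 0.25 across all 14 alternatives. ARAF (ENSG00000078061, X chromosome, 47561100 to 47571920, plus strand) had 87.1, 88.6 and 89.8 CPM in POLK sgRNA libraries, against 77.5, 78.4 and 78.7 CPM in control sgRNA libraries. Libraries of a group differed by under 3 CPM and the groups were clearly apart. ARAF reached 113.1% of its control level, with a log2 fold change of 0.18 (SE 0.03, adjusted p = 1.1e-06, edgeR).

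MAP2K1 and MAP2K2 encode MEK1 and MEK2, the dual-specificity kinases that activate ERK and the targets of MEK inhibitors used in melanoma. MAP2K1 (ENSG00000169032, chromosome 15, 66386817 to 66492312, plus strand) had 91.7, 91.1 and 93.7 CPM in POLK sgRNA libraries, against 90.9, 92.2 and 92.0 CPM in control sgRNA libraries. The values were interleaved, and the log2 fold change was 0.01 (95% interval −0.05 to 0.06, adjusted p = 0.84, edgeR). MAP2K2 (ENSG00000126934, chromosome 19, 4090321 to 4124129, minus strand) had 147.0, 155.0 and 161.4 CPM in POLK sgRNA libraries, against 149.2, 148.3 and 147.0 CPM in control sgRNA libraries. POLK sgRNA library 1 was level with the lowest control while libraries 2 and 3 lay above every control, and the coefficient of variation was 4.66% in the POLK sgRNA group and 0.745% in the control group. The log2 fold change of MAP2K2 was 0.06 (95% interval 0.0029 to 0.12 before adjustment, adjusted p = 0.061, edgeR). Leaving out POLK sgRNA library 1 moved it to 0.10 (adjusted p = 0.0026) and leaving out POLK sgRNA library 3 to 0.03 (adjusted p = 0.41), over a range of adjusted p from 0.0026 to 0.41 across the 14 alternatives. It also passed with library size alone as the scale (0.021) and with no filter (0.032).

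MAPK3 encodes ERK1, one of the kinases at the end of the cascade. MAPK3 (ENSG00000102882, chromosome 16, 30114105 to 30123506, minus strand) had 68.9, 71.0 and 70.8 CPM in POLK sgRNA libraries, against 61.2, 59.5 and 61.2 CPM in control sgRNA libraries. All 3 POLK sgRNA libraries lay above all 3 control libraries. MAPK3 reached 115.8% of its control level, with a log2 fold change of 0.21 (SE 0.03, adjusted p = 1.8e-07, edgeR), and 45.2% of all genes tested had a larger absolute change. For ARAF that share was 51.2%, for HRAS 55.0% and for BRAF 71.5%.

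Each of these values rests on at least 1523 and at most 8400 counts per library. Counting error alone was at most 2.56% of a value, for BRAF in its smallest library, and at most 1.25% for MAP2K2. The SD of MAP2K2 in the POLK sgRNA group was therefore larger than counting error gives. In the control group the coefficient of variation also exceeded the largest counting error for NRAS (3.5% against 1.49%), HRAS (2.71% against 2.0%) and BRAF (3.06% against 2.56%).

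**Figure D2:**
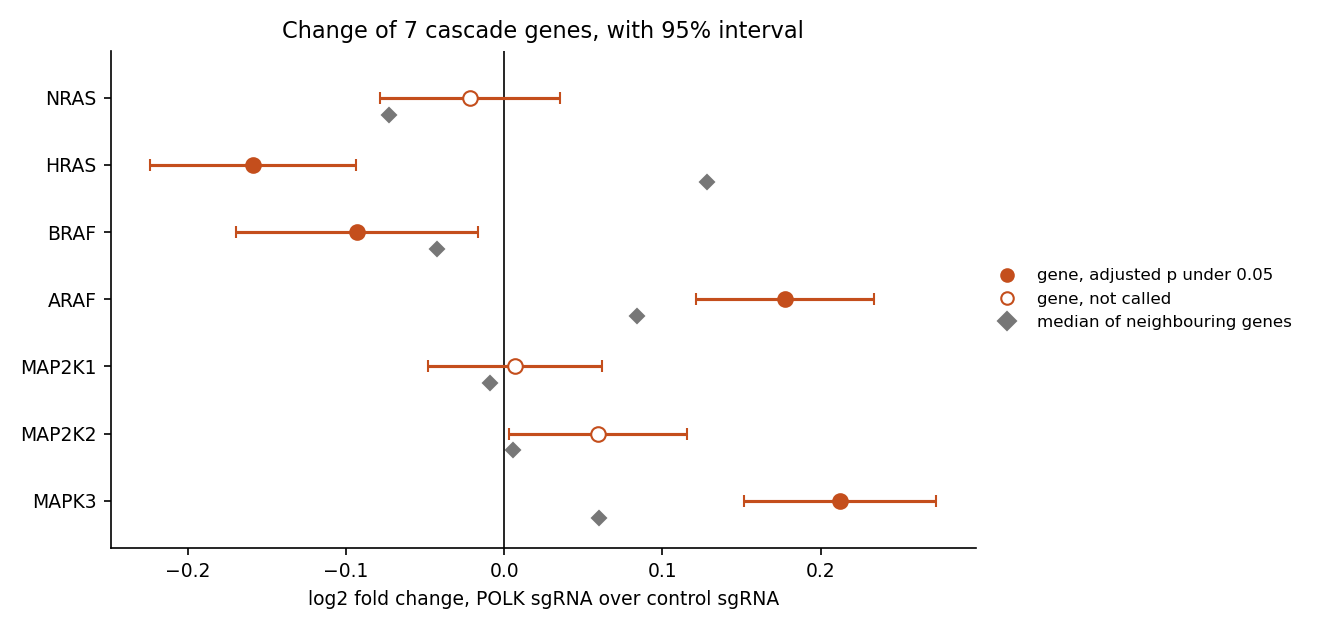
Log2 fold change (POLK sgRNA over control sgRNA) of each cascade gene with its 95% interval from edgeR's fit, filled where the adjusted p was under 0.05, and as a grey diamond the median log2 fold change of up to 40 neighbouring tested genes. MAPK3 and ARAF lie to the right of 0 and of their neighbours, while HRAS at −0.16 lies on the other side of 0 from its neighbours at 0.13.

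Each gene was also set beside the 20 nearest tested genes on each side of it on its chromosome. HRAS lies near the end of chromosome 11, where 34 neighbours had a median log2 fold change of 0.13, with 19 called higher and 4 lower. HRAS thus moved against its surroundings, and its log2 fold change less that median was −0.29. ARAF had neighbours with a median of 0.08 and remained 0.09 above them, and MAPK3 had neighbours with a median of 0.06 and remained 0.15 above them. For BRAF the neighbours' median was −0.04, and the remaining −0.05 did not pass (adjusted p = 0.25 over all genes tested, t test with the gene's own SE). The neighbours of NRAS, MAP2K1 and MAP2K2 had medians of −0.07, −0.01 and 0.01.

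Balance between paralogs was measured as the ratio of their counts within a library, in which library size and gene length cancel when groups are compared. In the RAF tier the ratio of BRAF to ARAF was 0.382, 0.367 and 0.378 in POLK sgRNA libraries, against 0.473, 0.449 and 0.439 in control sgRNA libraries. The ratio was lower in every POLK sgRNA library than in any control library, and the mean log2 ratio was −1.41 ± 0.03 in POLK sgRNA and −1.14 ± 0.06 in control sgRNA libraries (SD, n = 3 each). The difference of −0.27 put BRAF relative to ARAF at 82.8% of its control value. In the RAS tier the ratio of NRAS to HRAS was 1.88, 1.83 and 1.90 in POLK sgRNA libraries, against 1.80, 1.62 and 1.71 in control sgRNA libraries. Again the groups did not overlap, and the mean log2 ratio was 0.91 ± 0.03 in POLK sgRNA and 0.77 ± 0.08 in control sgRNA libraries, a difference of 0.14. In the MEK tier the ratio of MAP2K1 to MAP2K2 was 0.623, 0.587 and 0.581 in POLK sgRNA libraries, against 0.609, 0.622 and 0.626 in control sgRNA libraries, and the groups overlapped, with a difference in the log2 ratio of −0.05.

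The exact permutation test (two-sided) gave p = 0.1 for the RAF tier, p = 0.1 for the RAS tier and p = 0.3 for the MEK tier, and 0.15, 0.15 and 0.3 after Benjamini-Hochberg adjustment over the 3 pairs. With 3 libraries against 3 it can give no p below 0.1. When the fold changes of both paralogs were compared with their SEs combined from edgeR's fit, the difference was −0.27 (SE 0.05) for the RAF tier, 0.14 (SE 0.04) for the RAS tier and −0.05 (SE 0.04) for the MEK tier. The p-values adjusted over the 3 pairs were then 5.6e-06, 0.0043 and 0.18 (t test). That test takes the fold changes of the paralogs as independent, though both come from the same libraries. For the MEK tier neither test passed, which does not show that the balance was equal in both groups. The ERK tier was represented by MAPK3 alone and has no balance here.

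**Figure D3:**
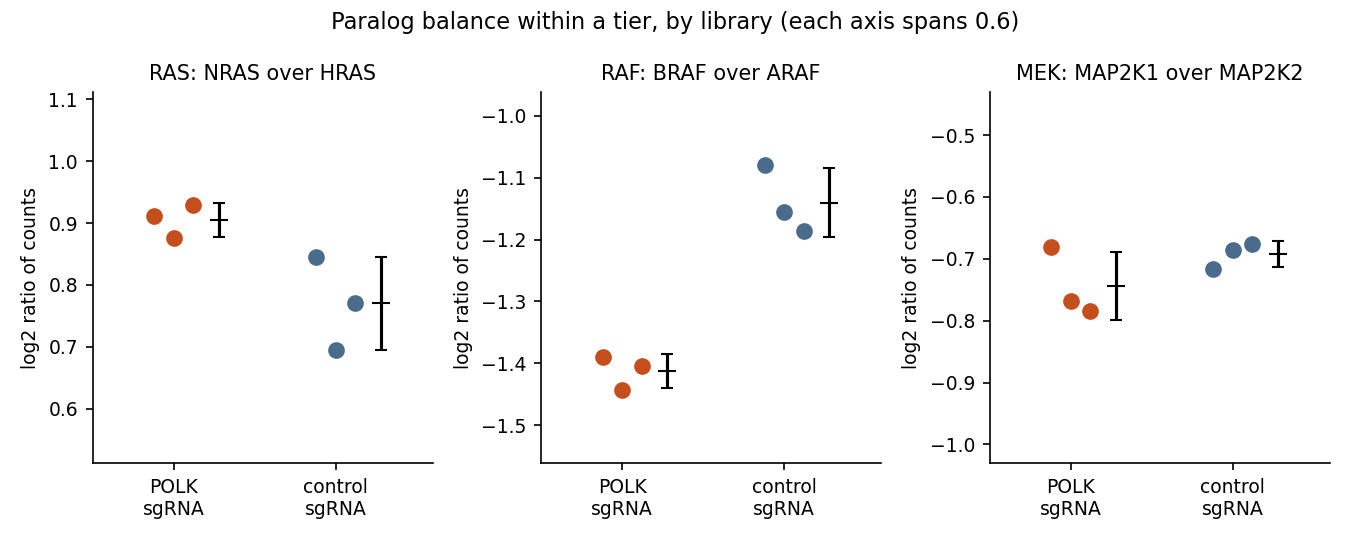
Log2 ratio of counts of the paralogs within each tier, by library, POLK sgRNA in orange and control sgRNA in blue, with mean and SD (n = 3), on axes that each span 0.6. The 3 BRAF over ARAF ratios with the POLK sgRNA lie between −1.44 and −1.39 and the control ratios between −1.19 and −1.08, while the MAP2K1 over MAP2K2 ratios overlap.

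Levels of different genes were compared only per length. Per kilobase of merged exons (GENCODE 29, GRCh38), MAP2K2 stood at 29.5 ± 1.4 CPM per kilobase in POLK sgRNA and 28.3 ± 0.21 in control sgRNA libraries (SD, n = 3), and HRAS at 28.6 ± 0.41 in POLK sgRNA and 31.9 ± 0.86 in control sgRNA libraries. ARAF (25 and 22.1), MAP2K1 (24.5 and 24.4), NRAS (22.3 and 22.7) and MAPK3 (19.1 and 16.5 CPM per kilobase in POLK sgRNA and control sgRNA libraries) followed in the POLK sgRNA libraries. In the POLK sgRNA libraries the values of MAP2K2 and HRAS overlapped, as did those of ARAF and MAP2K1. In the control sgRNA libraries HRAS was the highest, and NRAS and ARAF overlapped. BRAF was far lower, at 1.42 CPM per kilobase in POLK sgRNA and 1.51 in control sgRNA libraries, but its merged exons span 23432 bases. With the longest principal transcript (6458 bases for BRAF) in their place, BRAF stood at 5.15 CPM per kilobase in POLK sgRNA and 5.50 in control sgRNA libraries and remained the lowest of the 7 genes. MAP2K2 was then the highest in both groups, at 89.1 in POLK sgRNA and 85.5 in control sgRNA libraries. The order of the other genes moved too. In the POLK sgRNA libraries HRAS (46.05) and MAPK3 (37.7) then stood above ARAF (36.0), MAP2K1 (27.0) and NRAS (22.3). The order thus depends on which length is taken.

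BRAF made up 5.36% ± 0.10 of the summed BRAF and ARAF level per kilobase of merged exons in POLK sgRNA libraries and 6.41% ± 0.23 in control sgRNA libraries (SD, n = 3 each). With the length of the principal transcript the share was 12.5% ± 0.21 in POLK sgRNA and 14.7% ± 0.48 in control sgRNA libraries, so the share depends on which length is taken while the direction does not. The summed level of the RAF pair was 26.5 ± 0.40 CPM per kilobase of merged exons in POLK sgRNA and 23.7 ± 0.13 in control sgRNA libraries, higher in all 3 POLK sgRNA libraries (26.1 to 26.9) than in any control (23.5 to 23.7). For the RAS pair the sum was 50.9 ± 0.47 and 54.6 ± 0.89 and for the MEK pair 54.0 ± 1.6 and 52.7 ± 0.15 CPM per kilobase, in POLK sgRNA and control sgRNA libraries.

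The library kit does not mark strand, so reads from overlapping genes on opposite strands cannot be told apart, and 3 of the 7 genes have such partners. NDUFB2, a respiratory chain gene, shares 1239 exon bases (5.29% of those of BRAF) and had 72.7 and 66.6 CPM in POLK sgRNA and control sgRNA libraries, above BRAF itself. SNAPC5 shares 216 bases (5.75%) with MAP2K1 and had 31.8 CPM in POLK sgRNA and 21.9 CPM in control sgRNA libraries, and the antisense transcript AC116913.1 shares 432 bases (11.5%). SYN1 shares 23 bases with ARAF and had 0.710 CPM in POLK sgRNA and 1.5 CPM in control sgRNA libraries. NRAS, HRAS, MAP2K2 and MAPK3 overlap no other annotated gene. Processed copies of ARAF and MAP2K1 and a copy of BRAF are annotated, and reads that fit these as well as the parent gene make counts uncertain. The part of shared exons in the results was not tested.

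Genes whose CPM followed each cascade gene most closely over the 6 libraries were found by the root mean square difference of log2 CPM after centring each gene, among 9431 genes whose mean reached 10 CPM. VARS lay nearest to ARAF, at 0.00538 on the log2 scale against a median of 0.12 over all genes compared, with 349 ± 6.1 CPM in POLK sgRNA and 307 ± 3.4 CPM in control sgRNA libraries. RMND5B lay nearest to MAPK3 (0.00685), PRKAR2B to HRAS (0.00793) and SORT1 to BRAF (0.00995). For NRAS, MAP2K1 and MAP2K2 the nearest genes were MMD (0.0112), RAB1B (0.00587) and FAF1 (0.00932). None of these 7 genes lies on the chromosome of the gene it resembles, and with 2 groups of 3 libraries many genes share such a profile.

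In and around the cascade, 104 of 110 listed regulators, partners and related genes were tested, of which 36 were higher and 37 lower with the POLK sgRNA. Of the tested genes, 5 belong to a list of other kinases of the cascade tiers themselves, which is not described here. Another 13 belong to parallel kinase modules. That made 70.2% called, against 64.3% of all genes tested (32.8% higher and 31.6% lower). The median log2 fold change of the listed genes was 0.02, against 0.01 for all genes tested. Higher genes of several lists lie on chromosome 12 among neighbours that were also higher, and the list counts take no account of neighbours. In each list described here the genes with the smallest p are named, and all of those named had an adjusted p of at most 8.2e-06 (edgeR). The exchange factors and receptor adaptors, which load RAS with GTP, held 4 higher and 6 lower genes among 16 tested, with a median of 0.01. PTPN11, the gene of the phosphatase SHP2 that couples receptors to RAS, averaged 302 ± 3.0 CPM in POLK sgRNA and 216 ± 3.9 CPM in control sgRNA libraries (SD, n = 3 each; log2 fold change 0.48). FRS2, an adaptor of fibroblast growth factor receptors, averaged 24.7 ± 0.38 CPM in POLK sgRNA and 18.0 ± 0.57 CPM in control sgRNA libraries. Both lie on chromosome 12 among neighbours with medians of 0.61 and 0.60. SHC2, an adaptor, fell to 1.07 ± 0.16 CPM in POLK sgRNA libraries, against 3.99 ± 0.55 CPM in controls (log2 fold change −1.90).

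GTPase-activating proteins, which return RAS to the GDP-bound state, held 3 higher and 3 lower genes among 9 tested, with a median of 0.03. The count of higher genes was 1 without POLK sgRNA library 2, control library 2 or control library 3. RASAL2 fell to 51.7 ± 3.0 CPM in POLK sgRNA libraries, against 76.4 ± 1.2 CPM in control sgRNA libraries, and DAB2IP to 63.9 ± 1.4 CPM in POLK sgRNA libraries, against 77.2 ± 1.1 CPM in control sgRNA libraries (log2 fold changes −0.56 and −0.27). RASAL1 rose to 4.28 ± 0.15 CPM in POLK sgRNA libraries, against 1.49 ± 0.10 CPM in controls, and lies on chromosome 12 among neighbours with a median of 0.65.

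Enzymes and carriers of RAS lipid modification, which attach, trim and move the lipid tail of RAS, were lower in 7 and higher in 2 of 13, with a median of −0.09. Of all genes tested 31.6% were lower and 32.8% higher, and the lean of this list was not tested. ZDHHC9, which adds palmitate to NRAS and HRAS together with GOLGA7, averaged 27.8 ± 0.88 CPM in POLK sgRNA and 34.0 ± 0.76 CPM in control sgRNA libraries (log2 fold change −0.29). ABHD17B, which removes palmitate, averaged 33.3 ± 1.2 and 41.3 ± 0.47 CPM, and ICMT, which methylates the processed C-terminus, averaged 165 ± 1.5 and 181 ± 3.6 CPM, in POLK sgRNA and control sgRNA libraries. All 3 fell, with adjusted p of 9.1e-08, 5.8e-09 and 8.2e-06 (edgeR). The count of higher genes was 1 without POLK sgRNA library 2 or 3 or control library 1 or 3, and 0 without control library 2, while that of lower genes stayed at 5 to 7.

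RAF partners and scaffolds were called in 18 of 22, 8 higher and 10 lower, with a median of −0.01. That was 81.8% called, against 64.3% of all genes tested, and the excess was not tested. PPP1CC, a catalytic subunit of protein phosphatase 1, which dephosphorylates RAF in a complex with SHOC2, averaged 238 ± 3.6 CPM in POLK sgRNA and 167 ± 1.8 CPM in control sgRNA libraries. BRAP, a protein that binds active RAS, averaged 40.7 ± 0.79 CPM in POLK sgRNA and 26.6 ± 1.2 CPM in control sgRNA libraries. Both lie on chromosome 12 among neighbours with medians of 0.60 and 0.61, close to their own log2 fold changes of 0.51 and 0.61. YWHAQ, a 14-3-3 protein of the family that holds RAF inactive, fell to 505 ± 6.4 CPM in POLK sgRNA libraries, against 688 ± 3.5 CPM in controls (log2 fold change −0.45, neighbours' median −0.22).

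Of 12 other RAS family GTPases tested 5 were higher and 5 lower, with a median of 0.01, and without control library 3 the lower ones were 3. RRAS rose to 22.7 ± 1.1 CPM in POLK sgRNA libraries, against 16.1 ± 0.04 CPM in controls, and RAP1B, on chromosome 12, to 119 ± 5.0 CPM in POLK sgRNA libraries, against 91.9 ± 2.3 CPM in control sgRNA libraries (neighbours' median 0.56). DIRAS1 fell to 17.7 ± 0.52 CPM in POLK sgRNA libraries, against 22.8 ± 0.38 CPM in control sgRNA libraries.

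Among kinases and transcription factors that ERK phosphorylates, 7 were higher and 3 lower of 14 tested, with a median of 0.07. Against 32.8% higher and 31.6% lower over all genes tested, the lean of this list was not tested. MYC, a transcription factor that ERK stabilises by phosphorylation, fell to 23.0 ± 1.7 CPM in POLK sgRNA libraries, against 33.4 ± 0.55 CPM in control sgRNA libraries (log2 fold change −0.53, neighbours' median −0.12). RPS6KA5, the kinase MSK1, rose to 12.7 ± 0.66 CPM in POLK sgRNA libraries, against 8.59 ± 0.39 CPM in controls (log2 fold change 0.56). ELK3, an ETS factor on chromosome 12, rose to 112 ± 2.7 CPM in POLK sgRNA libraries, against 92.0 ± 2.5 CPM in control sgRNA libraries, with a log2 fold change of 0.28 below the median of 0.55 of its neighbours. In the parallel JNK, p38 and ERK5 modules 4 kinases were higher and 1 lower of 13 tested. That was 38.5% called, against 64.3% of all genes tested, and the gap was not tested. Without POLK sgRNA library 3 or control library 3 there were 2 lower. MAP2K5, which activates ERK5, rose to 27.0 ± 0.30 CPM in POLK sgRNA libraries, against 20.8 ± 0.60 CPM in controls. MAPK8, the kinase JNK1, fell to 19.6 ± 0.55 CPM in POLK sgRNA libraries, against 23.8 ± 0.20 CPM in control sgRNA libraries, and MAPK13, a p38 kinase, rose to 1.02 ± 0.15 CPM in POLK sgRNA libraries, against 0.390 ± 0.107 CPM in control sgRNA libraries. Set beside these lists, the log2 fold changes of the 7 cascade genes ran from −0.16 to 0.21. Those of the 104 other listed genes, some of them also of the cascade tiers, ran from −1.92 to 1.95. The lower end was an exchange factor with few counts, at 0.36 CPM in POLK sgRNA and 1.35 CPM in control sgRNA libraries. The upper end was another, at 0.41 CPM in POLK sgRNA and 0.10 CPM in control sgRNA libraries. The other set is also larger, and the difference in range was not tested.

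**Figure D4:**
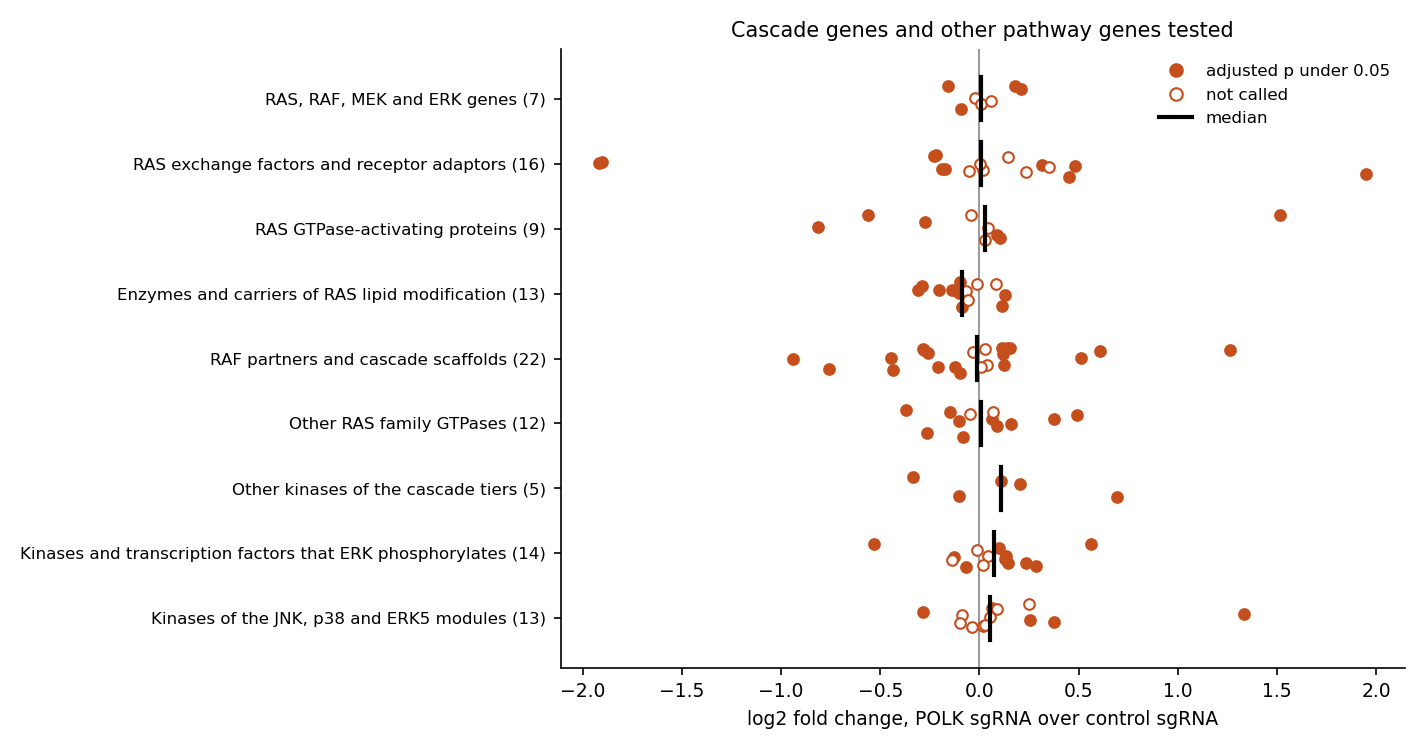
Log2 fold change (POLK sgRNA over control sgRNA) of the 7 cascade genes and of the tested genes in each list of regulators, partners and related genes, with filled points for an adjusted p under 0.05, open points for others, a black line at the median and the number tested in parentheses. Points of the 7 cascade genes lie between −0.16 and 0.21, and the lists reach from −1.92 to 1.95.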

How the data were processed

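Per the labels' protocols, editing used the Alt-R CRISPR-Cas9 system and mRNA libraries the TruSeq RNA V2 kit, an unstranded one. The submitters' processing notes name FastQC, Trimmomatic, STAR, DESeq2 and the build GRCh38. For the counting tool, its settings and the annotation, nothing is given in the sources used here. Values deposited by the authors are raw counts, whole numbers per gene and library that are not normalized.

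In R 4.3.3, edgeR's filterByExpr (minimum count 10, minimum total 15) kept 13930 genes (82.3%). Library sizes were scaled by TMM, and groups were compared with the quasi-likelihood F test of edgeR 4.0.16 (robust, two-sided, no covariates), Benjamini-Hochberg adjusted over all genes tested, threshold 0.05. Each SE is the absolute log2 fold change divided by the root of F. The fit was tested on simulated counts. Positions and lengths came from GENCODE 29.

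The members and lists were chosen with earlier results of these data known. Named were all 7 members, the 3 genes with the smallest p in each list and each member's nearest gene by profile; a few genes named by it are not reported here. Alternatives were DESeq2 size factors, library size alone, no filter, a mean CPM of 1 as the filter, the Wald test of DESeq2 1.42.0, limma-voom (limma 3.58.1), a block for the replicate number, each library left out and the subtraction of neighbours' medians. The principal transcript length was an alternative chosen after seeing the data.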

Additional observations from a re-analysis of the deposited data

How the results depend on the processing

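Under all 14 alternatives HRAS stayed lower (log2 fold change −0.29 to −0.14) and ARAF (0.09 to 0.19) and MAPK3 (0.15 to 0.23) stayed higher. Each had an adjusted p under 0.05 in edgeR, DESeq2 or limma-voom and, with neighbours' medians subtracted, in a t test. That t test used the gene's own SE and took the median as free of error. NRAS (−0.04 to 0.05) and MAP2K1 (−0.01 to 0.02) passed under none of the 14 alternatives. BRAF kept its direction and lost its call with library size alone (−0.077, adjusted p = 0.077), DESeq2 (−0.10, 0.058) and neighbours' medians subtracted (−0.051, 0.25), and without 1 library it ranged from −0.12 to −0.076. MAP2K2 gained a call with library size alone (0.075, adjusted p = 0.021) and no filter (0.063, 0.032), and without 1 library it ranged from 0.028 to 0.096. The count of lower members was accordingly 1 with library size alone and 1 with DESeq2, and 1 to 2 without 1 library. The causes were not tested.

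Of the lists, GTPase-activating proteins had 1 higher gene with DESeq2, and 1 to 2 without 1 library. Lipid modification had 1 higher gene with DESeq2 size factors and 0 with DESeq2 (edgeR called 2), and 0 to 2 without 1 library. Other RAS family GTPases had 3 lower genes with library size alone, and 3 to 5 without 1 library. The JNK, p38 and ERK5 modules had 2 lower genes with DESeq2 size factors, and 1 to 2 without 1 library. The paralog difference with combined SEs was 0.14 for NRAS over HRAS and −0.27 for BRAF over ARAF. With the paralogs taken as independent, each passed the threshold that the exact test could not reach. Without 1 library these differences were 0.10 to 0.17 and −0.30 to −0.24, and that of MAP2K1 over MAP2K2 −0.08 to −0.03.

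Same-numbered libraries did not deviate together (correlations −0.06, −0.08 and −0.15 over 9432 genes), so the numbers do not pair them. With the replicate number as a block 4483 genes were higher and 4290 lower, against 4566 and 4396 without it, and it changed no call of the 7 cascade genes. With the block BRAF had a log2 fold change of −0.09 and the paralog differences were 0.14, −0.27 and −0.05 for the RAS, RAF and MEK tiers.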
